A study of Mus musculus with 8 samples.

Results

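Microvilli and the apical membrane were examined through 10 genes of the 55414 in the table: Baiap2l1 and Baiap2l2 of the I-BAR family, Prom1 and Prom2 of the prominin family, the transmembrane mucin genes Muc1, Muc4 and Muc20, the membrane linker Ezr, and the actin-bundling genes Espn and Vil1. The set was put together because Baiap2l2, Muc4 and Prom1 were lower with tolvaptan. Their values in this comparison chose the set, so group differences of the 10 genes are given as a description, with no p-value. The side of the threshold on which each lay, in the main fit and in alternative settings, is given as no evidence. The data are RNA-seq values from mpkCCD cells, a line from the mouse cortical collecting duct. Confluent cells on permeable supports had 0.1 nM dDAVP, a vasopressin analog that activates the V2 receptor, throughout. One group of 4 libraries received vehicle for 24 h (dDAVP alone) and the other group of 4 received 50 nM tolvaptan, a V2 receptor antagonist, for 24 h (tolvaptan plus dDAVP), so dDAVP was present in all 8 libraries and no library was without it. The cells are 1 clonal line, and the labels do not say whether the replicates came from separate cultures, so every p-value measures the spread between these libraries, which may be technical. Levels are in TPM, a length-corrected share of each library's transcripts. They can be compared between genes only roughly. Tolvaptan replicate 4 also differed from its group along the GC content of the genes, as described below. The number of reads behind the TPM values is unknown.

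The collecting duct principal cell carries short microvilli on its apical surface, the surface to which vasopressin, through the V2 receptor and cAMP, sends water channels. A microvillus is a membrane protrusion around a bundle of actin filaments. I-BAR proteins bind the membrane, and several of them help to shape or extend such protrusions. Villin, espin, fimbrin and the EPS8 proteins bundle or cap the filaments. Ezrin, radixin and moesin (the ERM proteins) tie the bundle to the membrane. Prominins are cholesterol-binding membrane proteins that sit on protrusions, and the transmembrane mucins form the sugar-rich coat over them.

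The libraries carried the profile of their label. Of 15 principal cell markers, 13 were above 1 TPM in at least 1 library, and the summed level of the 15 ran from 11889 to 12630 TPM with dDAVP alone and from 6425 to 7887 TPM with tolvaptan plus dDAVP. Most of that sum came from Krt18, Aqp2, Krt19 and Krt8, at means of 5039, 3050, 1457 and 1442 TPM with dDAVP alone. With tolvaptan their means were 3517, 272, 864 and 1117 TPM. Of the 11 principal cell markers tested by limma, 7 fell, among them Aqp2, the apical water channel gene (log2 change -3.49, adjusted p = 3.11e-08), and the keratin genes Krt8, Krt18 and Krt19 (-0.37 to -0.76). The sodium channel genes Scnn1a (0.62, adjusted p = 0.00238 from limma) and Scnn1g (0.42, adjusted p = 0.0014 from limma) rose, and Gata3 (-0.09, adjusted p = 0.309 from limma) and Hsd11b2 (-0.01, adjusted p = 0.974 from limma) did not pass. Scnn1b, another sodium channel gene on the list, was too low for the test, at 0.38 to 0.41 TPM with dDAVP alone and 0.25 to 0.3 TPM with tolvaptan. None of the 5 intercalated cell, 4 thick limb and distal convoluted tubule and 6 non-epithelial markers reached 1 TPM in any library, with highest values of 0.36, 0.46 and 0.68 TPM. Of 5 proximal tubule markers only Lrp2 was above 1 TPM, and the sum of the 5 ran from 8.07 to 8.75 TPM with dDAVP alone and from 10.8 to 11.8 TPM with tolvaptan. The part of these shifts in the differences below was not tested. In each library 9203 to 9422 genes were above 10 TPM. Tolvaptan replicate 4 stood apart from its group, and its values are described separately after the members.

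Vasopressin acts on transcription partly through the cAMP response element, and AP-1 factors bind a related motif, so the start regions of the genes are shown with both marked. RefSeq (GRCm38.p6) gave 12 windows, from 250 bases before to 50 after a transcript start, for 9 of the 10 genes, all but Baiap2l2. On both strands, 0 of the 12 windows held the cAMP response element TGACGTCA and 0 held its core TGACG, which lies within the longer motif, while 1.79% and 20.8% of 32851 windows of all genes did. The AP-1 motif TGANTCA was in 3 of the 12 windows, against 7.81% of all windows. Those 3 belonged to Prom1, which has a window at each of 2 starts, and to Ezr. The bases downstream of Prom1 start 2 were in 10 Prom1 transcripts of the GENCODE M21 models, against 2 for start 1. They may belong to an exon inside the gene, so the window of start 2 may not be a promoter. Whether start 2 was used in these cells was not tested. The matches lay at positions -88 to -82 and -189 to -183 from the Prom1 starts and at -32 to -26 from the Ezr start. The Muc4 window, shown because Muc4 is another of the genes that chose the set, held none of the motifs. The 250 bases before each start follow, with the AP-1 motif in capitals; a match describes the letters only.
Prom1 start 1, chr5:44101737-44101986, minus strand: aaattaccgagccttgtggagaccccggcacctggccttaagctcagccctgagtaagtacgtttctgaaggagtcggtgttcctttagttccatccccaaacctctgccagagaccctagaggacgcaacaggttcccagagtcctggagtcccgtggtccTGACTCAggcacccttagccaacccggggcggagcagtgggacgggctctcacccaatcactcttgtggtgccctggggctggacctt
Prom1 start 2, chr5:44094769-44095018, minus strand: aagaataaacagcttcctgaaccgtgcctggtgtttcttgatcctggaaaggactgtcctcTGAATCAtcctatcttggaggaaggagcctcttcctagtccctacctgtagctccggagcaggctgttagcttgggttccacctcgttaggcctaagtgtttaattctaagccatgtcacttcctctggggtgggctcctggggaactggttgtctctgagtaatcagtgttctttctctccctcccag
Ezr, chr17:6782781-6783030, minus strand: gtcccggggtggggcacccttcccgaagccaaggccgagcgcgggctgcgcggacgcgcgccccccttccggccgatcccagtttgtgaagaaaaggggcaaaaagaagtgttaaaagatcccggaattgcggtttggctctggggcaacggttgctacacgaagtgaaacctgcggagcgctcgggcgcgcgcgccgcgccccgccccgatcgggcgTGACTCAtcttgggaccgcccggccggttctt
Muc4, chr16:32735636-32735885, plus strand: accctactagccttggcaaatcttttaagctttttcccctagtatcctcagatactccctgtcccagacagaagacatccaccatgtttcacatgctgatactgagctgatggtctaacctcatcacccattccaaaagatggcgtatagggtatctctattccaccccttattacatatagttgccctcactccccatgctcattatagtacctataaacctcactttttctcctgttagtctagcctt

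Levels in the dDAVP libraries spanned a wide range. Muc1 and Ezr were the most abundant, at 513 ± 18.8 and 493 ± 15.6 TPM (SD, n = 4), with overlapping ranges, followed by Prom1 at 315 ± 14.4 TPM and Muc20 at 235 ± 14.7 TPM. Baiap2l2 (66.8 ± 8.84 TPM) and Prom2 (60.9 ± 2.36 TPM) overlapped each other and lay above Baiap2l1 (46.2 ± 0.802 TPM). Espn was at 19.1 ± 1.49 TPM and Muc4 at 14.2 ± 1.29 TPM, without overlap. Vil1, the villin gene, was near the bottom of the scale, between 0 and 0.12 TPM with dDAVP alone and between 0.14 and 0.31 TPM with tolvaptan, too low for the test, so no fold is given. With tolvaptan, Prom1 came below Muc20 without overlap, and Baiap2l2 came below Prom2 and Baiap2l1. It was also below Espn within each tolvaptan library, and the ranges of the pair overlapped only through tolvaptan replicate 4.

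**Figure D1:**
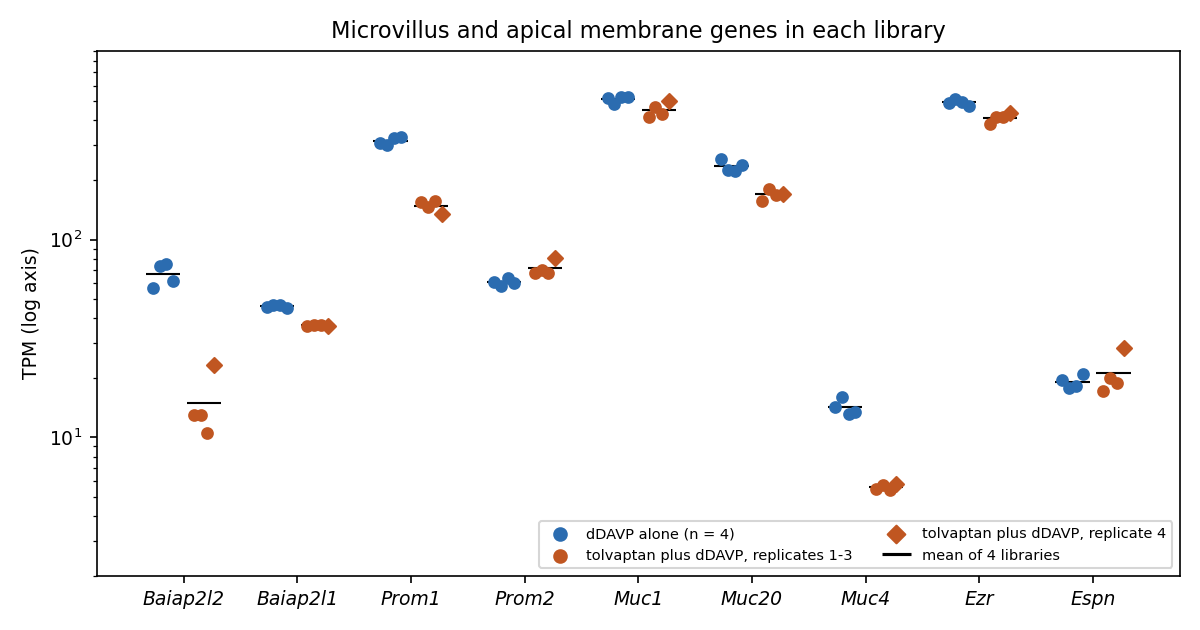
TPM on a log axis in each of the 8 libraries for the 9 genes above the filter, with a line at the mean of each group of 4 and a diamond for tolvaptan replicate 4. Baiap2l2, Prom1 and Muc4 are lower in all 4 tolvaptan libraries than in any dDAVP library, and Muc1 and Espn overlap. The diamond is the highest tolvaptan point for Baiap2l2, Prom2, Muc1, Muc4, Ezr and Espn and the lowest for Prom1.

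The I-BAR genes were both lower with tolvaptan, by very different amounts. Baiap2l2 (ENSMUSG00000018126), which encodes an epithelial I-BAR protein, held 56.9, 73.2, 75.3 and 62.0 TPM in dDAVP replicates 1 to 4 and 13.0, 13.0, 10.6 and 23.2 TPM in tolvaptan replicates 1 to 4. All 4 tolvaptan libraries were far below the lowest dDAVP library, and replicate 4 was well above the other tolvaptan libraries. The means, 66.8 ± 8.84 and 14.9 ± 5.62 TPM, differed 4.48-fold, or 5.49-fold without tolvaptan replicate 4. In bulk RNA such a difference cannot be told apart from one in the number of cells that carry the transcript. On the log2(TPM + 1) scale used for all fits, the change was -2.14 (SE 0.20), and 10 of the 9943 genes tested had a lower value. Baiap2l2 was chosen for its lower values in this comparison, so nothing is read from that rank.

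Baiap2l1 (ENSMUSG00000038859) encodes IRTKS, an I-BAR protein known to work with EPS8 in lengthening microvilli. It held 45.8, 46.7, 46.9 and 45.2 TPM with dDAVP alone and 36.6, 36.9, 37.0 and 36.7 TPM with tolvaptan. The groups did not overlap and each was very narrow. The means of 46.2 ± 0.802 and 36.8 ± 0.196 TPM differed 1.25-fold, a log2 change of -0.32 (SE 0.04). Within a library, the ratio of Baiap2l2 to Baiap2l1 went from 1.45 ± 0.171 with dDAVP alone to 0.406 ± 0.154 with tolvaptan, so the more abundant of the pair became the less abundant in every tolvaptan library. Together with Baiap2, the founding member of the family, their sum was 161 ± 10.6 TPM with dDAVP alone and 95.3 ± 10.4 TPM with tolvaptan, and Baiap2l2 made up 41.3 ± 2.79% and 15.3 ± 3.87% of it. Exons of Baiap2l1 share 49 bases with Bri3 on the other strand in the GENCODE M21 gene models, and 34 and 122 bases with Gm15708 and Dmrt1i.

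The prominin genes differed in direction. Prom1 (ENSMUSG00000029086), whose protein is also known as CD133, held 307, 299, 325 and 329.7 TPM with dDAVP alone and 155, 146, 156 and 134 TPM with tolvaptan. Every tolvaptan library was below every dDAVP library by a wide margin, and replicate 4 was the lowest. The means were 315 ± 14.4 and 148 ± 10.3 TPM, a 2.13-fold difference and a log2 change of -1.09 (SE 0.06). In TPM this was the largest difference of the set, at -167 TPM. Exons of Prom1 share 424 bases with the antisense model Gm16401, which was at 0.58 TPM or less in all 8 libraries.

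Prom2 (ENSMUSG00000027376), the other prominin, held 61.0, 58.5, 64.1 and 60.1 TPM with dDAVP alone and 67.6, 70.4, 67.4 and 81.1 TPM with tolvaptan. The tolvaptan libraries were all higher, though the nearest were close, and replicate 4 was the highest. The means were 60.9 ± 2.36 and 71.6 ± 6.45 TPM, and the log2 change was 0.23 (SE 0.06), or 0.17 without tolvaptan replicate 4. The ratio of Prom1 to Prom2 went from 5.18 ± 0.211 to 2.08 ± 0.308, and the sum of the prominins from 376 ± 15.8 to 219 ± 4.24 TPM.

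The means of the mucin genes were lower with tolvaptan, in reverse order of abundance. Muc4 (ENSMUSG00000118672), whose protein can bind the receptor ERBB2, was the least abundant and differed most. It held 14.2, 16.0, 13.1 and 13.4 TPM with dDAVP alone and 5.46, 5.77, 5.43 and 5.83 TPM with tolvaptan. The groups were far apart and the tolvaptan libraries nearly equal. The means of 14.2 ± 1.29 and 5.62 ± 0.207 TPM differed 2.52-fold, and the log2 change was -1.19 (SE 0.10). At this low level the log2 change depends on the pseudocount, and it was -1.31 with a pseudocount of 0.1 and -0.85 with 5. Over all alternative settings it ran from -1.61, after quantile normalization, to -0.85, all of the same sign.

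Muc20 (ENSMUSG00000035638), a mucin gene known for its expression in kidney, held 254.0, 224, 223 and 239 TPM with dDAVP alone and 157, 181, 168 and 169.7 TPM with tolvaptan. The groups did not overlap. The means were 235 ± 14.7 and 169 ± 9.78 TPM, a 1.39-fold difference and a log2 change of -0.47 (SE 0.06). Muc4 and Muc20 are neighbors that converge on opposite strands. Their exons share 627 bases in the GENCODE M21 models, 5.33% of the exonic length of Muc4 and 15.6% of that of Muc20. The library kit does not mark strand, so reads from those bases cannot be told apart. In M21, Muc4 carries another gene ID, and its model was matched by symbol. The overlap in the authors' gene models may differ. The ratio of Muc20 to Muc4 was 16.7 ± 1.82 with dDAVP alone and 30.1 ± 1.31 with tolvaptan.

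Muc1 (ENSMUSG00000042784), the most abundant mucin gene here, held 519, 485, 526 and 523 TPM with dDAVP alone and 417, 469, 429.6 and 499 TPM with tolvaptan. The groups overlapped, because tolvaptan replicate 4 was above dDAVP replicate 2. The means were 513 ± 18.8 and 454 ± 37.3 TPM and the log2 change was -0.18 (SE 0.06), or -0.23 without tolvaptan replicate 4. The 3 mucin genes summed to 762 ± 26.9 TPM with dDAVP alone and 628 ± 44.1 TPM with tolvaptan, and Muc1 and Muc20 made up nearly all of that sum.

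Of the cytoskeletal members, Ezr was slightly lower with tolvaptan and Espn was not separated. Ezr (ENSMUSG00000052397), which encodes ezrin, held 489, 512, 498 and 475 TPM with dDAVP alone and 384, 416, 418 and 435 TPM with tolvaptan. The groups did not overlap, at means of 493 ± 15.6 and 413 ± 21.6 TPM and a log2 change of -0.26 (SE 0.05). Espn (ENSMUSG00000028943), which encodes the actin bundler espin, held 19.5, 17.7, 18.1 and 20.98 TPM with dDAVP alone and 17.1, 20.02, 18.8 and 28.2 TPM with tolvaptan. The groups overlapped and the log2 change was 0.11 (SE 0.13), or -0.030 without tolvaptan replicate 4, so the sign rested on that library.

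**Figure D2:**
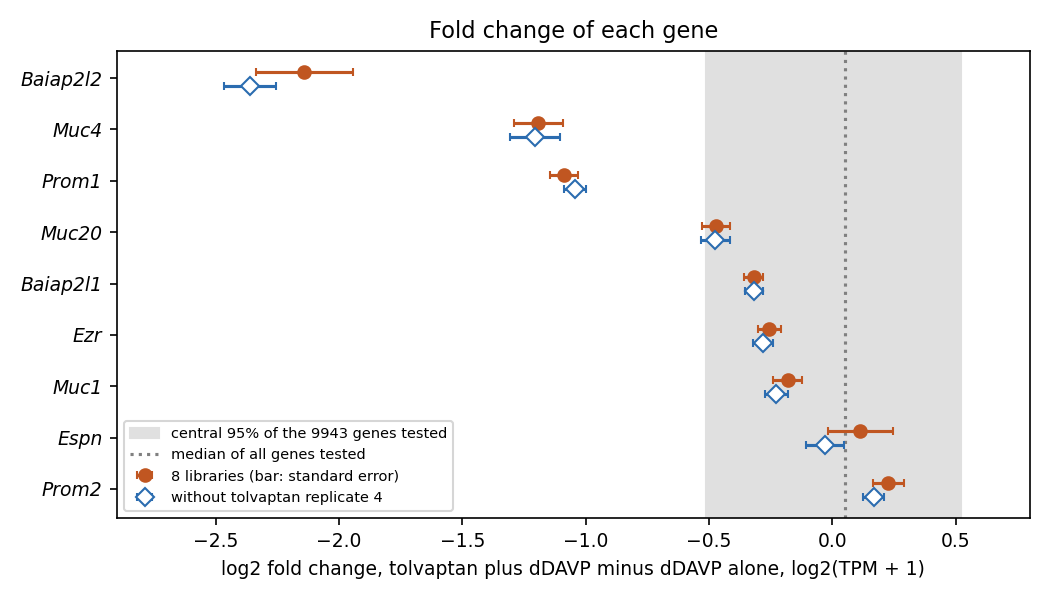
Log2 fold change of the 9 tested genes, tolvaptan plus dDAVP minus dDAVP alone on the log2(TPM + 1) scale, with standard errors, over 8 libraries (filled circles) and without tolvaptan replicate 4 (open diamonds). The shaded band holds the central 95% of the 9943 genes tested, from -0.51 to 0.52 around a median of 0.05, and Baiap2l2, Muc4 and Prom1, chosen for their lower values, lie outside it.

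Over the 9943 genes tested by limma, 607 (6.10%) were lower and 994 (10%) higher with tolvaptan at an adjusted p under 0.05, 16.1% in all. Of the 9 members tested, 6 were on the lower side of that threshold (Baiap2l1, Baiap2l2, Muc4, Muc20, Prom1 and Ezr) and 1 on the higher (Prom2); since the contrast chose the set, nothing is read from these counts. Adding a change of at least 1.5-fold left the 3 genes whose lower values chose the set, which that choice fixed (1.25% of all genes were past both limits on the lower side and 0.513% on the higher). Muc4 was above the filter through the dDAVP libraries alone, at 13.1 to 16.0 TPM against 5.43 to 5.83 TPM with tolvaptan. Among the 9 tested, the groups did not overlap for 6 members that were lower and 1 that was higher, against 7.99% and 15.1% of all genes (23.1% together). Just inside the threshold was Prom2, which was past it in 8 of 19 alternative settings and missed it, among others, without any 1 of the 4 dDAVP replicates or tolvaptan replicate 2, with log2 changes of 0.21 to 0.25. Just outside was Muc1, which crossed it without tolvaptan replicate 4, with a common median and with the GC trend removed. With libraries scaled to a common median, 825 genes were lower and 576 higher. The number of higher genes was 463 to 568 without any 1 of the dDAVP replicates or tolvaptan replicate 2, and 1495 without tolvaptan replicate 4.

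**Figure D3:**
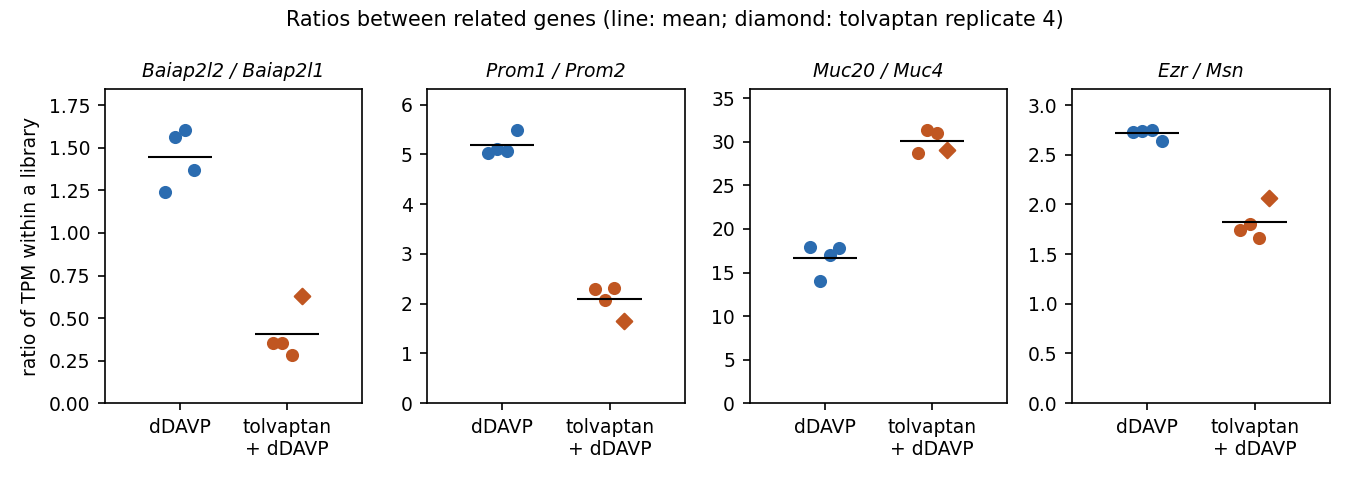
Ratio of the TPM of related genes in each library, with a line at the group mean and a diamond for tolvaptan replicate 4. The ratios of Baiap2l2 to Baiap2l1, Prom1 to Prom2 and Ezr to Msn are lower, and that of Muc20 to Muc4 higher, in all 4 tolvaptan libraries than in any dDAVP library.

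Tolvaptan replicate 4 differed from the other tolvaptan libraries along the GC content of the genes. Its root mean square deviation from the group mean was 0.334 on the log2 scale, against 0.251 to 0.294 in the other 7 libraries. In genes of low, middle and high GC content, its median difference from tolvaptan replicates 1 to 3 was -0.18, 0.01 and 0.19. Among the members, Prom1 has the lowest GC content (45.8%) and differed by -0.19, and Baiap2l2 (64.0%) and Espn (62.1%) have the highest and differed by 0.88 and 0.57. The other 6 lay between 49.3% and 54.2% GC and differed by 0.00 to 0.24. Deviation of a library from the rest of its group correlated with GC content in other libraries too. Spearman's correlation was 0.71 for tolvaptan replicate 4, -0.57 to -0.25 for tolvaptan replicates 1 to 3 and -0.25 to 0.21 with dDAVP alone. For tolvaptan replicates 1 to 3 the rest included replicate 4. Over 9859 genes the log2 change correlated with GC content at 0.17, and at -0.08 without tolvaptan replicate 4. The part of GC content in these values was not tested. Without tolvaptan replicate 4 the log2 changes were -2.36 for Baiap2l2, -1.21 for Muc4 and -1.04 for Prom1, as against -2.14, -1.19 and -1.09 with it.

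**Figure D4:**
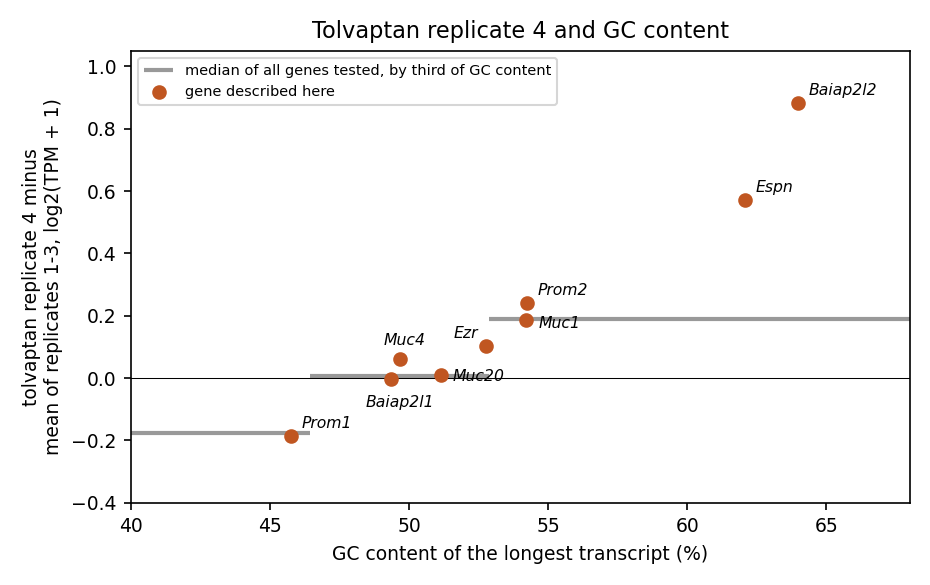
Difference of tolvaptan replicate 4 from the mean of tolvaptan replicates 1 to 3, on the log2(TPM + 1) scale, against GC content of the longest transcript for the 9 genes, with the median of all genes in each of 3 GC classes as gray lines. Baiap2l2 and Espn, at the highest GC content, lie at 0.88 and 0.57, and Prom1, at the lowest, lies at -0.19.

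The wider apical machinery did not move one way. A list of 79 other genes of the microvillus, the apical membrane and its delivery had 55 members above the filter, of which limma called 8 lower and 10 higher at the same threshold (32.7%, against 16.1% of all genes). None changed 1.5-fold, and the median log2 change of the 55 was 0.05, the same as over all genes tested. The list held small changes in both directions.

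In the core bundle and its motors, 2 of 13 tested genes fell and 3 rose. Those that fell were Pls1, which encodes the microvillar fimbrin (66.7 ± 1.94 to 55.2 ± 3.24 TPM, log2 change -0.27, adjusted p = 0.00697 from limma), and the class I myosin gene Myo1e (-0.27, adjusted p = 0.00426 from limma). Those that rose were the severing protein gene Scin (395 ± 13.0 to 485 ± 12.7 TPM, 0.29, adjusted p = 0.000811 from limma), the actin nucleator gene Cobl (0.23, adjusted p = 0.0155 from limma) and Eps8l2, a relative of EPS8 (0.24, adjusted p = 0.031 from limma). Vill, the villin-like gene, named after its values were seen because Vil1 was near 0, was at 77.1 to 90.2 TPM and its groups overlapped. Of the 21 genes in this list, 5 (Eps8, Eps8l3, Myo1a, Espnl and Fscn1) were at 0.46 TPM or less in all 8 libraries, while others of the core, such as Pls1 and Cobl (92.9 ± 0.944 TPM with dDAVP alone), were well above the filter.

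Among the linkers between bundle and membrane, 1 of 8 tested genes fell and 3 rose. Msn, which encodes moesin, rose from 182 ± 3.44 to 228 ± 17.5 TPM (log2 change 0.32, adjusted p = 0.00339 from limma), in the opposite direction to Ezr. Rdx, the radixin gene, was at 152 ± 5.92 and 135 ± 14.8 TPM with overlapping groups (-0.17, adjusted p = 0.153 from limma). The ratio of Ezr to Msn was 2.71 ± 0.0520 with dDAVP alone and 1.82 ± 0.173 with tolvaptan, and ezrin transcripts made up 59.7 ± 0.815% and 53.2 ± 2.76% of the 3 ERM genes, whose sum was 827 ± 18.9 and 777 ± 33.6 TPM. The scaffold gene Slc9a3r2, whose protein (NHERF2) binds ezrin, rose (30.5 ± 1.60 to 43.1 ± 2.97 TPM, 0.48, adjusted p = 0.000598 from limma), and so did Podxl, a sialomucin gene (0.45, adjusted p = 0.00494 from limma). Slc9a3r1, whose protein is NHERF1, had a log2 change of -0.20 (adjusted p = 0.0794 from limma), and -0.27 (adjusted p = 0.000508 from limma) without tolvaptan replicate 4. Clic4 fell by 0.18 on the log2 scale (adjusted p = 0.0162 from limma).

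The other families gave few changes. Baiap2 (48.3 ± 1.42 and 43.6 ± 4.96 TPM, adjusted p = 0.192), Mtss1 (8.46 ± 0.870 and 9.80 ± 1.89 TPM, adjusted p = 0.423) and Mtss2 (18.9 ± 1.07 and 16.5 ± 3.77 TPM, adjusted p = 0.298), the other I-BAR genes, did not pass limma's test. Without tolvaptan replicate 4, Baiap2 (-0.22, adjusted p = 0.00713 from limma) and Mtss2 (-0.35, adjusted p = 0.0143 from limma) were past it. Of 8 other mucin and glycocalyx genes, 5 mucins were at 0.35 TPM or less, and of the remaining 3, Lgals3, a lectin gene, fell (546 ± 18.3 to 440.3 ± 45.0 TPM, -0.31, adjusted p = 0.0112 from limma). Cd164 (-0.14, adjusted p = 0.296 from limma) and Cd24a (0.14, adjusted p = 0.127 from limma) did not pass, but Cd24a did without tolvaptan replicate 4 (0.20, adjusted p = 0.00119 from limma). In the intermicrovillar adhesion complex, which links the tips of brush-border microvilli, 5 of 6 genes were at 0.24 TPM or less, and the light chain gene Calml4 (45.2 ± 2.74 and 46.9 ± 3.94 TPM) did not pass (adjusted p = 0.638 from limma).

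Apical polarity and delivery genes moved both ways, with 3 of 20 tested lower and 4 higher. Mal2, a transcytosis gene, fell from 1856 ± 99.5 to 1305 ± 156 TPM (log2 change -0.51, adjusted p = 0.00226 from limma), Rab11a, of the recycling endosome, from 407 ± 17.1 to 306 ± 7.96 TPM (-0.41, adjusted p = 0.000149 from limma), and the polarity GTPase gene Cdc42 by 0.28 on the log2 scale (adjusted p = 0.024 from limma). The atypical protein kinase C genes Prkcz (0.37, adjusted p = 0.00876 from limma) and Prkci (0.18, adjusted p = 0.0165 from limma), their partner Pard6b (0.15, adjusted p = 0.0392 from limma) and the annexin gene Anxa2 (0.21, adjusted p = 0.00809 from limma) rose. Among 7 tested genes of other apical membrane proteins, Tspan1, a tetraspanin gene, fell from 938 ± 15.6 to 643 ± 8.74 TPM (-0.55, adjusted p = 2.68e-06 from limma) and the other 6 did not pass.

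Of these 18 calls, 11 held in all 19 alternative settings. The 7 that did not were Cdc42, Clic4, Cobl, Eps8l2, Lgals3, Pard6b and Prkci, and 5 of them missed the threshold in some fits with 1 library fewer, with log2 changes of a similar size (0.22 to 0.25 for Eps8l2, -0.29 to -0.25 for Cdc42). By limma, Eps8l2 (adjusted p = 0.0519 to 0.0942) and Pard6b (0.0647 to 0.12) missed the threshold without any 1 of the dDAVP replicates or of tolvaptan replicates 2 and 3. Cdc42 missed it without dDAVP replicate 2, 3 or 4 (adjusted p = 0.055 to 0.0778 from limma), Clic4 without dDAVP replicate 3 or tolvaptan replicate 2 (0.0585 and 0.0555) and Prkci without dDAVP replicate 3 or 4 (0.0529 and 0.061).

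**Figure D5:**
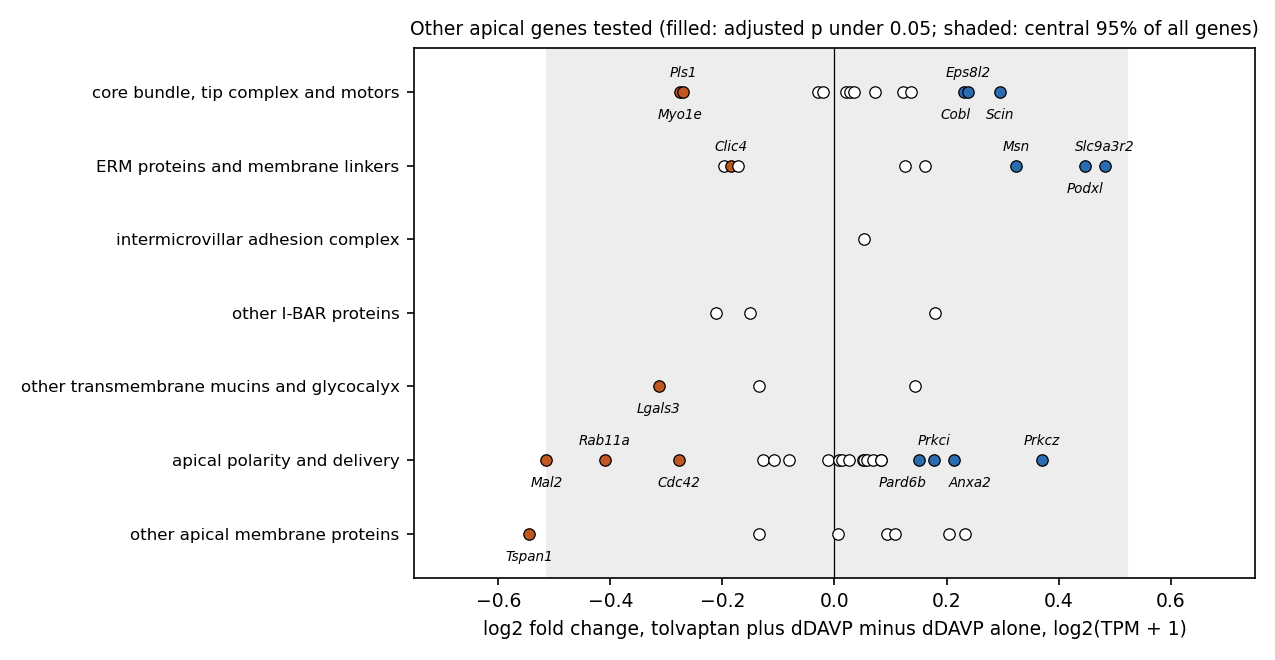
Log2 fold change, tolvaptan plus dDAVP minus dDAVP alone on the log2(TPM + 1) scale, of the 55 other apical genes tested, by list, with genes past an adjusted p of 0.05 from limma filled and named. The 8 filled points on the left and 10 on the right lie mostly inside the shaded band of the central 95% of all genes, and Mal2 and Tspan1, at -0.51 and -0.55, lie at or past its lower edge.

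The genes whose levels followed each of the 3 leading members most closely over the 8 libraries were picked by Pearson's r, as a description: the 2 groups stood apart in all of them, so r mostly measures the difference between the groups. For Baiap2l2 they were the potassium channel gene Kcnq1 (r = 0.998, 57.4 TPM with dDAVP alone and 33.8 TPM with tolvaptan on average), Entpd6 (0.993) and Efhd1 (0.991). For Muc4 they were the lectin gene Lgals9 (0.996, 86.3 and 42.8 TPM), Tspan1 (0.995) and Slfn2 (0.995). For Prom1 they were Gdpd1 (0.998, 35.8 and 19.7 TPM), Gcsh (0.998) and Rbbp7 (0.997).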

How the data were processed

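RNA from mpkCCD cells was converted to cDNA with the SMARTer V4 Ultra Low kit (8 PCR cycles) and tagmented with Nextera XT, per the labels, and sequenced as paired 50-bp reads; neither kit marks strand. The authors aligned reads to the mouse genome of Ensembl release 106 by STAR and deposited TPM values from RSEM, 1 per gene and library, rounded to 2 decimals; tool versions are not given in the sources used here. The table holds no counts, so DESeq2, named in the study's methods, could not be used and the depth of each library is unknown. No 2 libraries were identical. The doses and the time come from the study's methods. The authors' minimum and maximum columns were not used.

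Genes with a maximum above 10 TPM (9943) were transformed to log2(TPM + 1), which understates changes of low genes, and compared by limma 3.58.1 in R 4.3.3 (trend, unpaired, 2-sided, 4 against 4 libraries) with Benjamini-Hochberg adjustment over all of them. SDs are on the TPM scale over 4 libraries. The fit was tested on simulated data. The members and the gene lists were chosen with earlier results of these data known. Named were all members, listed genes past an adjusted p of 0.05, and others from the lists by mean TPM; of the others covered by that rule only some are named. Alternatives were other pseudocounts, filters, scalings and variance models, the replicate block, leaving out each library and, chosen after seeing the data, removal of each library's trend with GC content. GENCODE M21 (another build than the authors') gave GC content for 9859 of the genes tested (99.2%) and exon overlaps, and RefSeq GRCm38.p6 the promoter windows, matched by symbol.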

Additional observations from a re-analysis of the deposited data

Results flagged for a closer look

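In 90 groups of 4 libraries (the 9 members tested and 36 of the listed apical genes, those past the threshold and the most abundant others), 7 had a library set apart from the other 3 by a gap past Dixon's 95% critical value, and chance gives about 1 in 20. In 5 of the 7 that library was tolvaptan replicate 4: Cdc42 at 274.7 TPM, Prkcz at 27.99 TPM, Slc9a3r1 at 223.4 TPM, Cd24a at 432.1 TPM and Cd164 at 244.7 TPM. The other 2 were Muc1 in dDAVP replicate 2, at 485.3 TPM, and Baiap2 in dDAVP replicate 1, at 46.21 TPM. The part of GC content in the values of tolvaptan replicate 4 was not tested.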

How the results depend on the processing

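Of the 9 members tested, all but Espn kept the sign of the log2 change in every alternative setting that gave a value. The ranges were -2.36 to -1.88 for Baiap2l2, -1.61 to -0.85 for Muc4, -1.13 to -1.04 for Prom1, -0.53 to -0.43 for Muc20, -0.37 to -0.29 for Baiap2l1, -0.32 to -0.22 for Ezr, -0.25 to -0.14 for Muc1 and 0.16 to 0.25 for Prom2. Leaving out 1 library, Espn ran from -0.030 to 0.20, negative without tolvaptan replicate 4, and Vill from -0.058 to 0.016, positive without dDAVP replicate 3 or tolvaptan replicate 1. Calml4 was at -0.012 with the GC trend removed.

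The number of genes higher at an adjusted p under 0.05, 994 by limma, was 498 without a filter, 576 with a common median, 612 after quantile normalization, and 463 to 1495 without 1 library. The number lower, 607, was 1199 with the GC trend removed, and 413 to 859 without 1 library. Genes higher by 1.5-fold, 51, numbered 23 with a pseudocount of 5, 108 with a filter at a maximum of 1 TPM and 31 after quantile normalization. The member on the higher side (Prom2) was past the threshold in 0 cases with a filter at 1 TPM, with no filter, with a common median, after quantile normalization or without the variance trend, and in 0 to 1 without 1 library. With the GC trend removed, 14 listed genes were lower, against 8, and 6 to 12 were without 1 library. The common median moved the median log2 change of all genes from 0.05 to 0.01. The causes were not tested.

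The replicate numbers are shared by the groups. Deviations of same-numbered libraries did not go together (correlations of -0.0494, -0.0514, -0.0730 and -0.00463 across genes). Pairs of libraries with other numbers ran from -0.1035 to 0.1676, so these values show no pairing but cannot exclude it. With the replicate block, 396 genes were lower and 515 higher, and 0 members were past the threshold on the higher side. A filter at a mean of 10 TPM left out Muc4 and Mtss1 and gives no value for them. The depth is unknown, so counting error could not be set beside the low values of Muc4 and Vil1.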
